A study of Mus musculus with 6 samples.

Results

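Protein tyrosine phosphatases were examined in cultured lung group 2 innate lymphoid cells (ILC2s) from wild-type (WT) and SIRPα knockout (SIRPα KO) mice. The family was taken by name, as every Ptpn or Ptpr gene of the count table apart from Ptpn6, Ptpn11, pseudogenes, antisense genes and Ptprcap, which encodes a CD45-associated protein without phosphatase activity. This gave 23 of 17831 genes. Of these, 21 had enough reads to be tested, and Ptprq and Ptpru did not.

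Bulk RNAseq came from 3 WT and 3 SIRPα KO libraries, and the comparison asks how loss of SIRPα changes the transcriptome of these cells. WT mice carried the genotype label CB57BL/6 and the knockout mice SIRPalphatm1Ynliu/J (a targeted germline allele), and all were 6 to 8 weeks old. Before sorting, rmIL-33 was given to mice of both genotypes by the intranasal route (0.5 μg, 3 days). ILC2s were sorted on day 4 as CD45+ ST2+ CD127+ cells negative for lineage markers, and were then kept in rmIL-2 and rmIL-7, for 18 h or 24 h by different passages of the study. No untreated ILC2s were part of the bulk data, the labels do not say that replicates came from separate mice, and p-values therefore measure the spread between these libraries, which may be technical.

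Protein tyrosine phosphatases remove phosphate from tyrosine residues and so oppose or, at inhibitory sites, release tyrosine kinases. Receptor-type members (Ptpr genes) span the membrane and often carry a pair of phosphatase domains, of which the membrane-proximal one does most of the catalysis, whereas most non-receptor members (Ptpn genes) act in the cytosol or on internal membranes. In lymphocytes they set the threshold of antigen-receptor and cytokine signalling, CD45 by acting on Src family kinases and TC-PTP by acting on JAK and STAT proteins.

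The family is held together by 1 short catalytic motif, and its coding sequence is shown for some members. These are the members whose WT and SIRPα KO libraries did not overlap, except Ptpn2, and the most highly expressed one in WT. Of these, only Ptprc and Ptpn18 passed the threshold given below. The capitals mark the 24 bases that encode the motif, from the histidine codon before the catalytic cysteine to the codon of the arginine that binds phosphate. Sequences are written 5′ to 3′ on the coding strand, from GENCODE M21 transcripts (mm10), and for Ptpre the first of its 2 motifs is given.
Ptprc: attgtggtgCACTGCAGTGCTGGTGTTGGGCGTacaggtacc
Ptpre: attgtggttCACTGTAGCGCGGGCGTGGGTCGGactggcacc
Ptpn7: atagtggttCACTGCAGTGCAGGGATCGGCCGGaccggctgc
Ptpn13: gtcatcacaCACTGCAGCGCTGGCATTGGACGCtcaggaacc
Ptpn4: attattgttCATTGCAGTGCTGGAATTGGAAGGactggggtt
Ptpn18: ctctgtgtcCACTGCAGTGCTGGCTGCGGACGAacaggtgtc

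A motif of this form was found in 22 of 23 members, and 5 members (Ptpra, Ptpre, Ptprf, Ptprs and Ptpru) held 2 of them. Ptprv, annotated as a processed transcript, had no coding sequence to search. Over 20 other members, the first motif differed from that of Ptprc at 3 to 8 of the 24 bases. Ptpra was the nearest, at 3 bases, and Ptpn13 and Ptpn18 differed at 5 and 6 bases.

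The libraries were not equally alike. Each library had 13980499 to 19051507 reads on genes. WT replicate 3 stood apart in the correlation of log2 reads per 1000000 (CPM) across genes. It correlated at 0.930 and 0.927 with WT replicates 1 and 2, which correlated at 0.962 with each other. With the SIRPα KO libraries it correlated at 0.850 to 0.862, where WT replicates 1 and 2 did at 0.913 to 0.947. The SIRPα KO libraries correlated at 0.981 to 0.986 among themselves. WT replicates 1 and 2 carry codes with the same number (37), as do SIRPα KO replicates 2 and 3 (44), so that they may not be separate samples. The targeted gene, Sirpa, was still counted in every library, with 149, 96 and 73 reads in WT and 48, 85 and 28 in SIRPα KO, and its log2 fold change of -1.12 ± 0.42 (SE) did not pass the threshold (edgeR adjusted p = 0.115). All 13 ILC2 markers were measured, and they summed to 14803 to 16003 CPM in WT and 20473 to 21026 CPM in SIRPα KO. Of these, Il5 and Il2ra were called higher and Id2 and Thy1 lower. Il5 was the largest part of each sum, at 8448 to 9711 CPM in WT and 12589 to 13241 CPM in SIRPα KO. Il2ra was at 1406 to 2064 CPM in WT and 3417 to 3473 CPM in SIRPα KO. Of the markers of other cells, 5 of 6 measured for B cells were lower in SIRPα KO, summing to 216 to 479 CPM in WT and 23.1 to 84.6 CPM in SIRPα KO, and 3 of 5 for NK cells were lower, at 13.9 to 25.3 CPM and 1.73 to 3.73 CPM. T cell markers summed to 18.6 to 23.5 CPM in WT and 4.77 to 5.56 CPM in SIRPα KO (1 lower), mostly from Cd3g. Macrophage markers summed to 43.7 to 128 CPM in WT and 77.4 to 120 CPM in SIRPα KO (1 higher). Epithelial markers summed to 53.0 to 79.0 CPM in WT and 8.63, 75.1 and 74.6 CPM in SIRPα KO (1 lower). Neutrophil and eosinophil markers summed to 0.284 to 1.32 CPM in WT and 18.9, 2.10 and 0.930 CPM in SIRPα KO. SIRPα KO replicate 1 was thus apart from replicates 2 and 3 in both lists. Of the endothelial markers 1 was called higher, and of the erythrocyte markers 1 lower. Cd4 (T cell list), Fcgr1 (macrophage list), Siglecf and Epx (neutrophil and eosinophil list) had no read in any WT library. Over these lists no measured marker was at 0 in all 6 libraries.

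The family was led by a few genes. Per kilobase of transcript, Ptpn7, which encodes a phosphatase of ERK and p38 MAP kinases, had the highest level in WT ILC2s, at 106 ± 17.8 CPM per kilobase (SD, n = 3). It was followed by Ptprc, which encodes CD45, at 60.4 ± 20.7 CPM per kilobase. Ptpn2, which encodes TC-PTP, stood at 35.8 ± 1.19 CPM per kilobase, and Ptpn1, which encodes the related PTP1B, at 23.8 ± 3.22. Without division by length, Ptpn7 (323 to 452 CPM) and Ptprc (215 to 445 CPM) overlapped in WT. Per kilobase of the longest transcript, neighbours among Ptpn7, Ptprc, Ptpn2 and Ptpn1 did not overlap between WT libraries, so that these genes were separated. Below them only Ptpn18 and Ptpre were a pair of neighbours without overlap, and 18 of the 22 neighbouring pairs shared part of their range. From Ptpn1 through Ptpn13, Ptpra, Ptpn9 and Ptpn22 to Ptprs, mean levels ran from 23.8 to 9.95 CPM per kilobase, with overlap at each step. Ptpn5, Ptprn, Ptprf, Ptpru and Ptprq all had mean levels under 0.5 CPM per kilobase in WT.

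**Figure D1:**
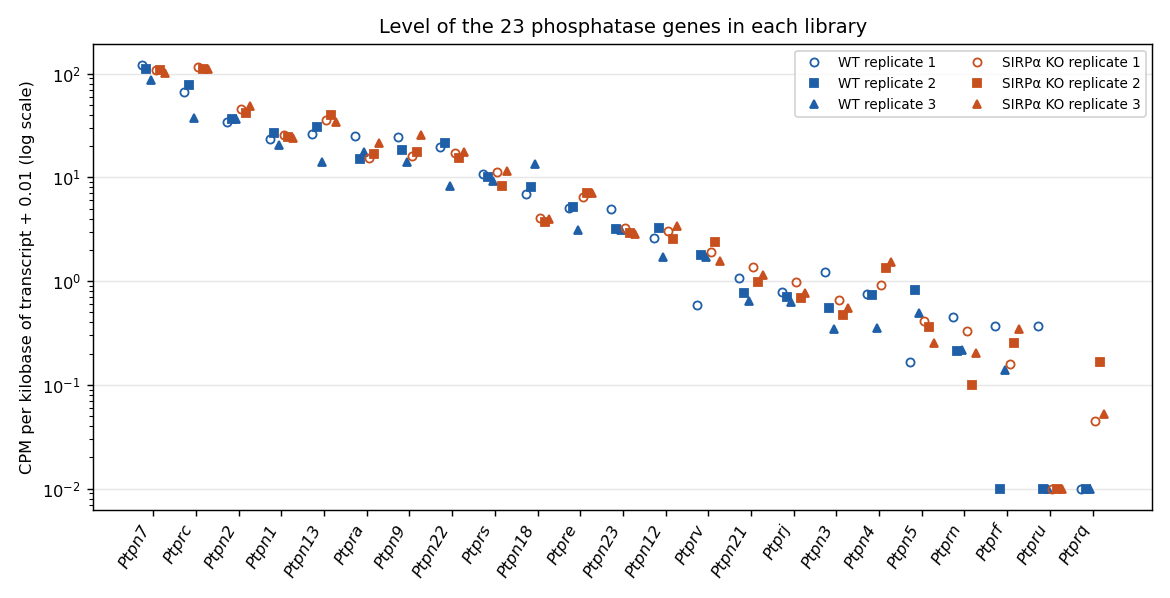
Level of each phosphatase gene in each of the 6 libraries, as CPM per kilobase of the longest transcript plus 0.01 on a log scale, with genes in the order of their WT mean. Blue symbols are WT and orange symbols SIRPα KO, with 1 symbol shape per replicate number, which the labels do not give as a pairing. Ptpn7 leads in WT at 106 CPM per kilobase on average, Ptprc rises to the same height in SIRPα KO (112), and Ptpru and Ptprq are at or near 0.

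In SIRPα KO the order was close to that in WT. Ptprc moved to the first place at 112 ± 3.43 CPM per kilobase (SD, n = 3) and Ptpn7 to the second at 106 ± 3.78. In all, 7 members kept their rank, and the largest shift was 3 ranks, by Ptpn4. The family as a whole took 0.173%, 0.173% and 0.117% of the reads in WT and 0.197%, 0.196% and 0.199% in SIRPα KO. Ptprc alone made up 22%, 25.9% and 18.1% of the family's reads in WT and 33.7%, 32.6% and 31.7% in SIRPα KO. Without Ptprc, the family summed to 1340, 1272 and 971 CPM in WT and to 1315, 1323 and 1358 CPM in SIRPα KO. The WT and SIRPα KO libraries thus overlapped once Ptprc was left out.

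Between genotypes, 2 of the 21 tested members passed the threshold, an adjusted p under 0.05 in edgeR over all genes tested. Ptprc was higher in SIRPα KO and Ptpn18 was lower. That is 9.52% of the members, against 11.7% of all 13623 genes tested. By direction, 1 member was called higher, where 5.94% of all genes were, and 1 was called lower, where 5.81% were. In 6 members (28.6%) the WT and SIRPα KO libraries did not overlap, 5 of them higher and 1 lower in SIRPα KO, against 42.8% of all genes. The log2 fold change was above 0 in 14 members and below 0 in 7, whereas 48.4% of all genes were above 0. The median was 0.06 over the members and -0.03 over all genes. With upper-quartile scaling, which shifted the median over all genes to -0.13, 10 members were above 0 and 11 below. The members' shares of calls and of separated libraries were thus no higher than those of the table.

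**Figure D2:**
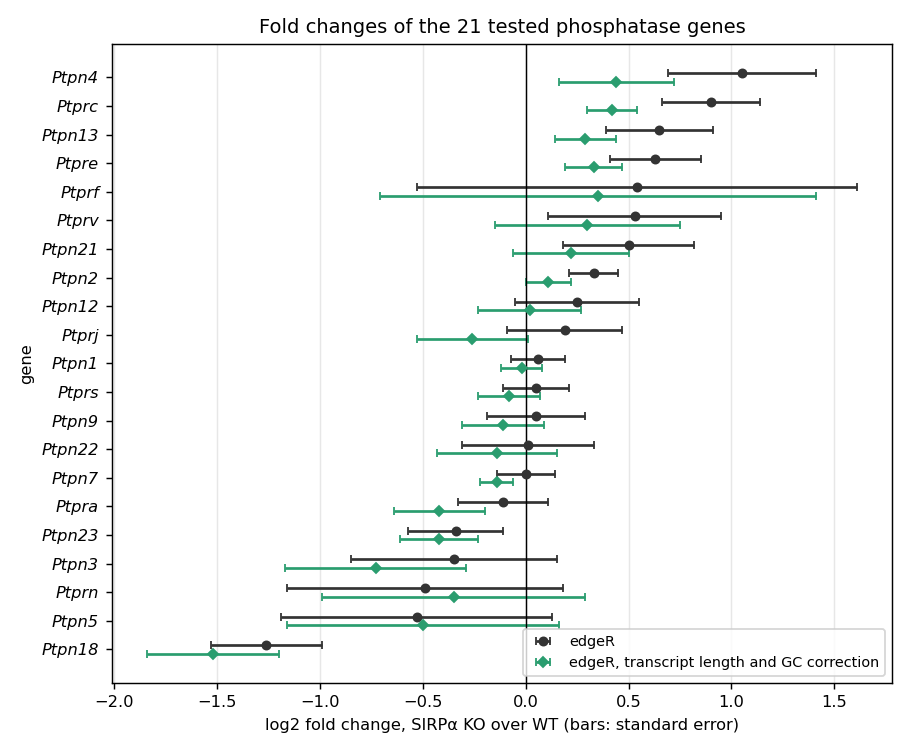
Log2 fold change of SIRPα KO over WT (x axis) for the 21 tested phosphatase genes (y axis), as fitted by edgeR (circles) and after correction for transcript length and GC content (diamonds), with bars of 1 standard error. Ptpn18 stands alone at the low end under both (-1.26 and -1.52), whereas Ptprc moves from 0.90 to 0.42 with the correction.

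Among the receptor-type members, Ptprc (chr1:138062861-138175708, mm10) encodes CD45, the abundant leukocyte phosphatase that removes the inhibitory phosphate from Src family kinases. CD45 was also part of the sort gate, as was absence of its B220 form, so that cells were chosen by its surface level in both genotypes. Ptprc was measured at 379, 445 and 215 CPM in WT and at 667, 638 and 630 CPM in SIRPα KO. Each SIRPα KO library lay above each WT library, and WT replicate 3 was the lowest of all. The mean rose from 346 ± 119 to 645 ± 19.7 CPM (SD, n = 3 each), a 1.86-fold increase (log2 fold change 0.90 ± 0.24 SE, edgeR adjusted p = 0.0484). In these bulk libraries more cells with the transcript and more transcript per cell cannot be told apart. The call lay at the threshold, was lost under the length and GC correction (log2 fold change 0.42, adjusted p = 0.0740), without WT replicate 1 (0.97, adjusted p = 0.0742) and without any 1 SIRPα KO library (0.88 to 0.92, adjusted p = 0.138 to 0.172), and was kept with a smaller fold without WT replicate 3 (0.65, adjusted p = 0.00455). B cells also express Ptprc, and their markers were lower in SIRPα KO, opposite to Ptprc, but their part in the result was not tested. A gene that overlaps Ptprc on the same strand, A130071D04Rik, had 59 to 151 reads per library.

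Ptprcap, named for its association with CD45 but no phosphatase, was measured at 126, 154 and 241 CPM in WT and at 103, 114 and 107 CPM in SIRPα KO. The WT libraries all lay above the SIRPα KO libraries, opposite to Ptprc, although the difference did not pass the threshold (log2 fold change -0.68 ± 0.23 SE, edgeR adjusted p = 0.0853). With the length and GC correction it was -0.05.

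Ptpre and Ptpra encode closely related receptor-type enzymes that can activate Src family kinases, and they gave different values. Ptpre (chr7:135537481-135686293) was measured at 28.9, 29.9 and 17.7 CPM in WT and at 37.5, 40.5 and 40.6 CPM in SIRPα KO. The genotypes did not overlap, with a log2 fold change of 0.63 ± 0.22 (SE), but the threshold was missed (edgeR adjusted p = 0.0958). An antisense gene within it, 5830432E09Rik, had 29 to 55 reads per library. Ptpra (chr2:130450278-130556124), on the same chromosome as Sirpa and 818050 bases from it, was measured at 134, 79.9 and 94.2 CPM in WT and at 81.0, 88.7 and 115 CPM in SIRPα KO. These ranges overlapped widely, at a log2 fold change of -0.11 ± 0.22 (SE, edgeR adjusted p = 0.758).

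Ptprs (chr17:56412426-56476483) encodes a receptor of the LAR group that binds proteoglycans. It was measured at 73.4, 68.6 and 62.6 CPM in WT and at 76.8, 56.3 and 78.6 CPM in the knockout, with a log2 fold change of 0.05 ± 0.16 (SE, edgeR adjusted p = 0.862). The WT range lay within that of SIRPα KO. Ptprf, which encodes LAR itself, had between 0 and 48 reads per library.

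The fibronectin-repeat receptors (Ptprj, Ptprv and Ptprq) and the remaining receptors were low. Ptprj, which encodes CD148, had 72 to 115 reads per library and a log2 fold change of 0.19 (edgeR adjusted p = 0.671), and 11.5% of its transcript is nearly identical to the gene Gm13767, so that reads could be shared. Ptprv (chr1:135108497-135132594) lies head to head with Ptpn7, with 106 bases between their starts. It was measured at 3.57, 10.8 and 10.3 CPM in WT and at 11.5, 14.5 and 9.43 CPM in the knockout, with a log2 fold change of 0.53 ± 0.42 (SE, edgeR adjusted p = 0.411). Only WT replicate 1 was apart from the rest. Ptprq had no read in WT and 4, 22 and 5 reads in SIRPα KO, and Ptpru, a receptor of the MAM group, had 34 reads in WT replicate 1 and none elsewhere, too few for a test. Ptprn, which encodes an islet autoantigen without enzyme activity, had 6 to 27 reads per library.

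Among the members with a MAP kinase interaction motif, Ptpn7 (chr1:135132700-135145317) was measured at 452, 415 and 323 CPM in WT and at 404, 404 and 380 CPM in SIRPα KO. The SIRPα KO libraries lay within the WT range. The means were 397 ± 66.6 and 396 ± 14.1 CPM (SD, n = 3 each), with a log2 fold change of -0.00 ± 0.14 (SE, edgeR adjusted p = 0.991). Ptpn5, best known from neurons, had 9 to 38 reads per library (log2 fold change -0.53, edgeR adjusted p = 0.608).

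**Figure D3:**
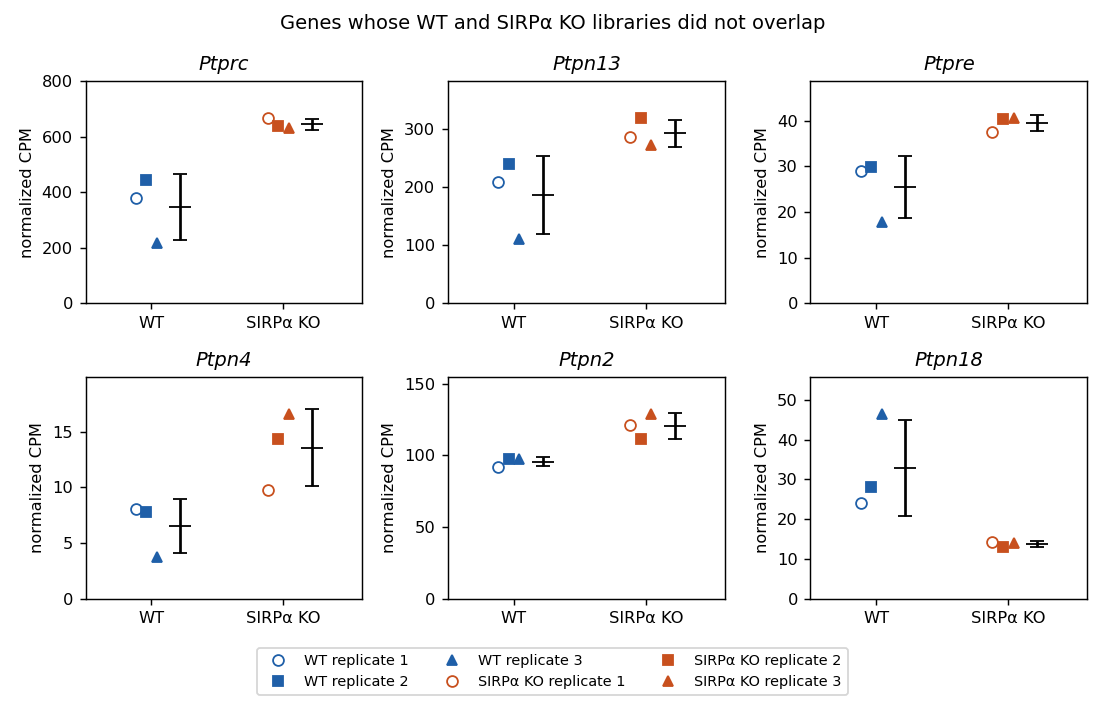
Normalized CPM (y axis, from 0) by library for the 6 members whose WT (blue) and SIRPα KO (orange) libraries did not overlap, with the mean and SD (n = 3) beside each group. WT replicate 3 (blue triangle) is the lowest library for Ptprc, Ptpn13, Ptpre and Ptpn4 and the highest for Ptpn18. Such separation was found in 28.6% of the tested members against 42.8% of all genes tested, and only Ptprc and Ptpn18 passed the threshold.

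The PEST group of cytosolic phosphatases, named for a sequence rich in proline, gave the clearest fall. Ptpn18 (chr1:34459762-34475733), a negative regulator of signalling by several tyrosine kinases, was measured at 24, 28.0 and 46.5 CPM in WT and at 14.3, 13.0 and 13.9 CPM in SIRPα KO. Every WT library lay above every SIRPα KO library, with WT replicate 3 the highest. The mean fell from 32.8 ± 12 to 13.7 ± 0.667 CPM (SD, n = 3 each), a 2.39-fold decrease (log2 fold change -1.26 ± 0.27 SE, edgeR adjusted p = 0.0277). The call was kept without WT replicate 3 (-0.92, adjusted p = 0.0115) and with the length and GC correction (-1.52, adjusted p = 0.0300). It was lost without any 1 SIRPα KO library (-1.28 to -1.21, adjusted p = 0.111 to 0.136) and with libraries of one code summed (-1.38, adjusted p = 0.137). An overlapping gene on the opposite strand, Gm28417, had 12 to 23 reads per library.

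The other members of the PEST group did not pass the threshold. Ptpn22 (chr3:103859795-103912247), which acts with the kinase Csk on Src family kinases, was measured at 54.4, 59.2 and 22.6 CPM in WT and at 47.3, 42.2 and 48.1 CPM in SIRPα KO. WT replicate 3 was the lowest of the libraries, and the log2 fold change was 0.01 ± 0.32 (SE, edgeR adjusted p = 0.982) with it and -0.30 without it (adjusted p = 0.126). Ptpn12, a regulator of the cytoskeleton, had a log2 fold change of 0.25 (edgeR adjusted p = 0.592), with 5.56 to 10.7 CPM in WT and 8.29 to 11 CPM in SIRPα KO. In each library the ratio of Ptpn18 to Ptpn22 can be formed. It was 0.441, 0.474 and 2.05 in WT and 0.301, 0.307 and 0.289 in SIRPα KO. It is 1 of 6 ratios that were chosen after their values were seen. The genotypes did not overlap, but the difference did not pass (exact two-sided permutation p = 0.100, the smallest that 3 against 3 allows, and 0.150 after Benjamini-Hochberg adjustment over the 6 ratios).

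Ptpn1 and Ptpn2 encode the pair of phosphatases that limit JAK and STAT signalling downstream of cytokine receptors. Ptpn2 (chr18:67665511-67724595) was measured at 91.8, 97.1 and 97.6 CPM in WT and at 121, 111 and 129 CPM in SIRPα KO. Its libraries did not overlap and the WT spread was small, but the log2 fold change of 0.33 ± 0.12 (SE) missed the threshold in edgeR (adjusted p = 0.0968) and passed it in DESeq2 (adjusted p = 0.0174). The log2 fold change was 0.11 with the length and GC correction (adjusted p = 0.547) and 0.23 with upper-quartile scaling (adjusted p = 0.244). Ptpn1 (chr2:167932057-167979385) was measured at 101, 116 and 88.7 CPM in WT and at 110, 106 and 104 CPM in SIRPα KO. The latter lay within the WT range (log2 fold change 0.06 ± 0.13 SE, edgeR adjusted p = 0.782). The ratio of Ptpn2 to Ptpn1 was 0.908, 0.835 and 1.10 in WT and 1.10, 1.05 and 1.24 in SIRPα KO, so that the genotypes overlapped (exact two-sided permutation p = 0.300).

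The FERM group, whose members link the phosphatase to the cell cortex, held Ptpn13, Ptpn4, Ptpn3 and Ptpn21. Ptpn13 (chr5:103425192-103598303) encodes a large scaffold with PDZ domains and was measured at 208, 240 and 111 CPM in WT and at 286, 319 and 273 CPM in SIRPα KO. The libraries did not overlap, with a log2 fold change of 0.65 ± 0.26 (SE, edgeR adjusted p = 0.127). Without WT replicate 3 the log2 fold change was 0.39, and it then passed the threshold (adjusted p = 0.0361).

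Ptpn4 (chr1:119652467-119837613) had the largest positive log2 fold change of the tested members, 1.05 ± 0.36 (SE), without passing the threshold (edgeR adjusted p = 0.0898). It was measured at 8.05, 7.82 and 3.71 CPM in WT and at 9.78, 14.3 and 16.6 CPM in SIRPα KO. Its longest transcript, at 10874 bases, was also the longest of the tested members, and with the length and GC correction the log2 fold change was 0.44 (adjusted p = 0.358). Ptpn21 (log2 fold change 0.50, edgeR adjusted p = 0.309) had 54 to 122 reads and Ptpn3 (-0.35, adjusted p = 0.662) had 32 to 134 reads per library.

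Of the remaining non-receptor members, Ptpn9 (chr9:56994923-57062807) encodes an enzyme of secretory vesicles. It was measured at 99.5, 75.5 and 57.5 CPM in WT and at 66.1, 71.6 and 104 CPM in the knockout, with a log2 fold change of 0.05 ± 0.24 (SE, edgeR adjusted p = 0.901). The spread within each genotype exceeded the difference between them. Ptpn23, which takes part in sorting of receptors in endosomes, was measured at 26.5, 17.1 and 16.7 CPM in WT and at 17.3, 15.5 and 15 CPM in SIRPα KO (log2 fold change -0.34 ± 0.23 SE, edgeR adjusted p = 0.350). Only WT replicate 1 lay clearly above the other libraries.

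Much of the WT spread lay between WT replicate 3 and the first 2 WT libraries. WT replicate 3 was the lowest of the 6 libraries for 12 of the 21 tested members and the highest for 1, Ptpn18. The same count over all genes was not taken. The median coefficient of variation over the members was 31.1% in WT and 16.5% in SIRPα KO, and 11.4% between the first 2 WT libraries, a value over fewer libraries. These 2 libraries share a code number and may not be separate samples. Their closeness, also in fits without WT replicate 3, may therefore be technical. Without WT replicate 3, 4 members passed the threshold in edgeR, with Ptprc, Ptpn13 and Ptpn2 higher and Ptpn18 lower, against 18.4% of all genes tested. The median over the members was then -0.00, with 10 above and 11 below 0. DESeq2 called 5 members on all 6 libraries, with Ptprc, Ptpn2, Ptpre and Ptpn4 higher and Ptpn18 lower, against 24.4% of all genes.

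**Figure D4:**
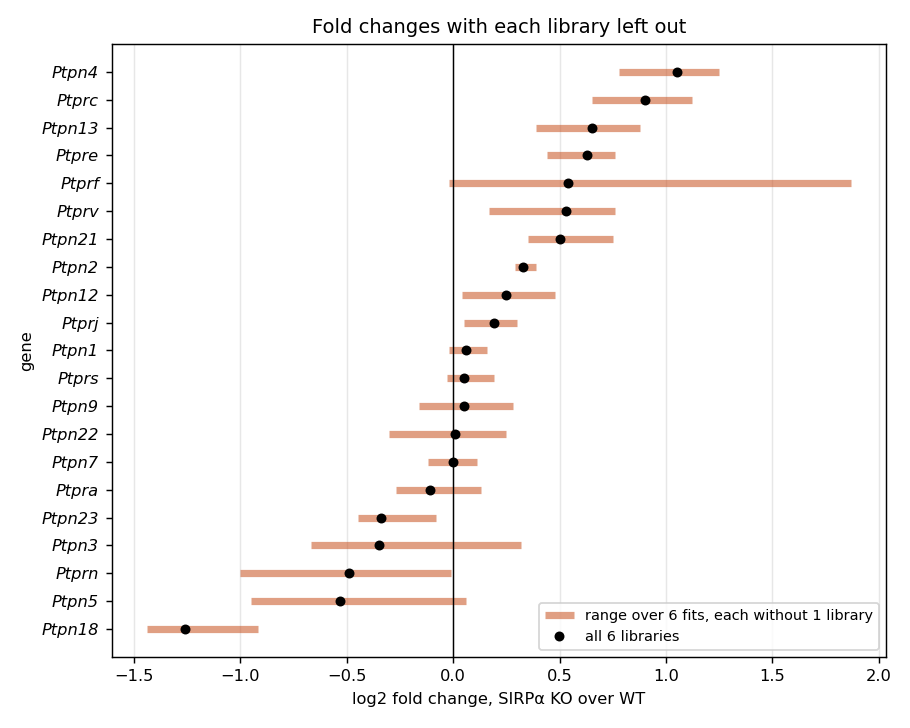
Log2 fold change of SIRPα KO over WT (x axis) for each tested phosphatase gene (y axis) with all 6 libraries (points), and the range over 6 fits that each left out 1 library (bars). The bars of Ptprc (0.65 to 1.12) and Ptpn18 (-1.44 to -0.92) stay on their side of 0. So do those of several members that were not called, such as Ptpn2 (0.29 to 0.39) and Ptpn23 (-0.45 to -0.08). The bars of others, such as Ptpn22 (-0.30 to 0.25) and Ptpn9 (-0.16 to 0.28), cross it.

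Transcript length moved with the fold changes across the whole table. Genes at an average log2 CPM of 3 or more were divided into 10 equal classes by length. Their median log2 fold change went from -0.55 in the class of shortest transcripts (median 977 bases) to 0.47 in that of the longest (8132 bases). Phosphatase transcripts were long, with a median of 5346 bases against 3057 over all genes tested, and 12 of 21 members fell in the 3 longest classes. Across the 21 members, log2 fold change and log2 length had a Pearson correlation of 0.54 and a Spearman correlation of 0.53, a description over genes that share the same libraries. Ptprc and Ptpre, of nearly the same length (5740 and 5753 bases), both lay above the median of 0.36 for their class. Ptpn18 (3495 bases) lay far below the median of its class, 0.13. With a correction for length and GC content, 9 members were above and 12 below 0, the median was -0.08, and only Ptpn18 was called, against 8.86% of all genes. The part of transcript length in these differences was not tested beyond this correction.

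**Figure D5:**
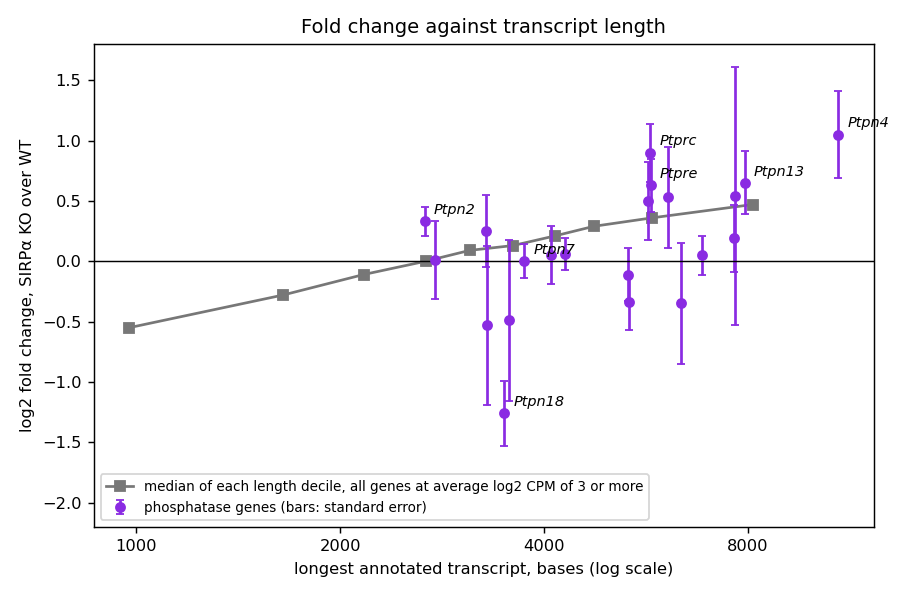
Log2 fold change of SIRPα KO over WT (y axis) against the length of the longest annotated transcript (x axis, log scale). Grey squares are medians of 10 classes by length of the genes at an average log2 CPM of 3 or more, rising from -0.55 to 0.47, and purple points are the 21 tested phosphatase genes with bars of 1 standard error. Ptprc, Ptpre and Ptpn13 lie above the grey line, Ptpn13 by less than its standard error, and Ptpn18 lies well below it. Ptpn4, at 10874 bases, lies beyond the end of the line at 8132 bases.

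Genes that work with the family were taken from 3 lists, in which 14 of 77 tested genes passed the threshold (4 higher, 10 lower), against 11.7% of all genes tested (5.94% higher and 5.81% lower). Of 19 tested tyrosine kinases that oppose the family or are its substrates, 1 was higher and 3 were lower, and the median log2 fold change was -0.05. Zap70, the antigen-receptor kinase, was at 135, 126 and 126 CPM in WT and 68.1, 82.1 and 79.3 CPM in SIRPα KO (log2 fold change -0.75 ± 0.12 SE, edgeR adjusted p = 0.0157). Fes, a cytosolic kinase, went from 57.0 ± 18 to 27.3 ± 4.33 CPM (-1.06 ± 0.25 SE, adjusted p = 0.0351), and its call was lost with the length and GC correction (adjusted p = 0.0521). Ptk2, which encodes focal adhesion kinase, went from 36.8 ± 10.7 to 75.9 ± 10.9 CPM (SD, n = 3; 1.04 ± 0.23 SE, adjusted p = 0.0305). Lck was the third kinase called lower. Lck and Zap70 are also expressed by T and NK cells, whose markers were lower in SIRPα KO as well (18.6 to 23.5 CPM in WT and 4.77 to 5.56 CPM in SIRPα KO for T cells, 13.9 to 25.3 CPM and 1.73 to 3.73 CPM for NK cells), and their part in these differences was not tested.

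Among 33 other tested phosphatases, cysteine-based apart from Eya2 and Eya3, 21 were above and 12 below 0, where 48.4% of all genes were above 0. Their median was 0.29. In this list 3 were called higher and 1 lower, against 11.7% of all genes called (5.94% higher and 5.81% lower). The 3 called higher were lipid phosphatases of the myotubularin family or their inactive relatives. Mtmr10 went from 8.52 ± 5.0 to 32.4 ± 5.04 CPM (SD, n = 3; log2 fold change 1.93 ± 0.46 SE, edgeR adjusted p = 0.0379), with Mtmr4 (1.2, adjusted p = 0.0173) and Sbf2 (1.31, adjusted p = 0.0231) beside it. Cdc25b, which activates cyclin-dependent kinases, was lower (-0.64, adjusted p = 0.0385). The median with the length and GC correction was 0.01, and Sbf2 was no longer called (adjusted p = 0.125).

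Of 25 tested adaptors, ligands and binding partners, 6 were called lower and none higher, where 5.81% and 5.94% of all genes were. Of the 25, 10 had an unadjusted edgeR p under 0.05, as did 4355 of all 13623 genes. DESeq2 called 1 higher and 8 lower, where it called 24.4% of all genes. The median was -0.23. Lgals1, which encodes galectin-1, a lectin that binds CD45, was at 1749, 1661 and 2542 CPM in WT and 793, 845 and 844 CPM in SIRPα KO (log2 fold change -1.26 ± 0.16 SE, edgeR adjusted p = 0.010). With the length and GC correction its log2 fold change was -0.63 (adjusted p = 0.00350). Lgals3, which encodes galectin-3, went from 520 ± 91.2 to 232 ± 6.29 CPM (-1.16 ± 0.14 SE, adjusted p = 0.00806). Each WT library lay above each SIRPα KO library for both galectin genes. The transmembrane adaptors Lime1 (-1.39, adjusted p = 0.0131) and Sit1 (-1.17, adjusted p = 0.0284) were lower too, and Lat and Cd2 were the other genes called. Lat, Cd2 and Sit1 are likewise expressed by T cells, and the part of the T and NK cell markers given above was not tested. The call of Sit1 was lost with the length and GC correction (adjusted p = 0.188). Of the SH2-domain phosphatases left out of the family, Ptpn6 had a log2 fold change of 0.36 (edgeR adjusted p = 0.121) and Ptpn11 of 0.17 (adjusted p = 0.520). The WT and SIRPα KO libraries did not overlap for Ptpn6, as for 42.8% of all genes. Ptpn6 passed the threshold in DESeq2 (0.38, adjusted p = 0.0322) and with the length and GC correction (0.53, edgeR adjusted p = 0.0443). Ptpn11 passed in neither.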

How the data were processed

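Bulk RNAseq libraries of cultured lung ILC2s, 3 WT and 3 SIRPα KO, were grouped by their genotype labels. Each library started from 10 pg of RNA, amplified with a low-input kit and sequenced on a NextSeq instrument. The authors aligned reads to mm10 with GENCODE M21 in Partek and STAR (versions 10.0 and 2.7.8 by the submitters' processing notes, 7.0 and 2.6.1d by the methods) and deposited estimated counts per gene, not scaled for depth. How strand, overlapping and repeated genes were counted is not given in the sources used here. Of the values in a library, 57.3% to 61.3% were whole, and no gene had a total under 10 reads. The record of columns lists 173 genes singly, and the other 17658 carry the same unit and entered the fit. Depth was 13980499 to 19051507 reads.

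Counts were rounded to whole numbers, filtered with filterByExpr of edgeR (minimum count 10, minimum total 15) and scaled by TMM (factors 0.9885 to 1.007). Genotype was the sole term of the quasi-likelihood fit, and p-values were adjusted by Benjamini-Hochberg over 13623 genes. The SE was derived from the F statistic. R 4.3.3, edgeR 4.0.16, limma 3.58.1, DESeq2 1.42.0, BLAST 2.17.0 and matplotlib 3.10.9 were used. Symbols were matched to GENCODE M21 directly for 17400 genes and through synonyms for 188, and 243 were not matched. All members were matched, and length was known for 99.0% of tested genes. The correction for length and GC content fitted splines with 5 degrees of freedom to 9024 genes outside the lists, as offsets. Procedures were tested on simulated data.

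Members in full detail were those past the threshold of 0.05, those whose average log2 CPM reached 5, and the 5 largest rises and falls among those whose average reached 3. Partner genes named passed 0.05, reached 3 and did not overlap between groups, with at most 4 per direction. Lck, Lat and Cd2 are named beyond that rule, after their values were seen. Members and lists were chosen with earlier results of these data known. The alternatives were DESeq2, other scalings and filters, a replicate block, summing libraries with one code, thinning, the length and GC correction and leaving out each library. Single-cell, flow cytometry and respiration data were not analysed here.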

Additional observations from a re-analysis of the deposited data

How the results depend on the processing

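Over 22 results and 16 alternatives, 351 values were computed. Of these, 303 kept direction and side of the threshold, 12 lost the call, 5 gained it and 31 changed sign. Only Ptprc and Ptpn18 were called in the main fit and could lose a call, and all 12 losses were theirs. A member called in neither fit counted as kept if its direction held. The number of genes called, 1600, became 3170 with DESeq2, 10 with libraries of one code summed (0 members and 0 of the partner genes called) and 16 to 2607 with 1 library left out, and upper-quartile scaling split the calls as 703 higher and 1010 lower instead of 809 and 791. The members called, 2, became 5 with DESeq2, 1 with library totals alone, without a filter or with the length and GC correction, and 0 to 4 with 1 library left out. The partner genes called, 14, ranged from 0 to 22 with 1 library left out, the highest without WT replicate 2 and 0 without any 1 SIRPα KO library. Fits with a library left out or with codes summed hold fewer libraries. The members' median, 0.06, was 0.23 with libraries of one code summed and -0.00 to 0.27 with 1 library left out (0.27 without WT replicate 1). The order by level had a Spearman correlation of 0.93 with that from median transcript lengths.

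Ptprc lost its call with library totals alone (adjusted p = 0.0534), without a filter (0.0617) and with libraries of one code summed (edgeR adjusted p = 0.148). Signs changed in members that were not called, and the cause was not tested. Upper-quartile scaling gave -0.03 for Ptpn1, -0.06 for Ptpn22, -0.04 for Ptpn9 and -0.05 for Ptprs. The length and GC correction gave -0.02, -0.14, -0.11 and -0.08 for these, and -0.26 for Ptprj. Ptpn22 was -0.00 after thinning. Ptpn7 was 0.02 with DESeq2 and without a filter, 0.01 with DESeq2 size factors and 0.08 with libraries of one code summed. With 1 library left out, values spanned -0.02 to 0.16 for Ptpn1, -0.30 to 0.25 for Ptpn22 (-0.00 and -0.01 without SIRPα KO replicates 1 and 3), -0.67 to 0.32 for Ptpn3, -0.95 to 0.06 for Ptpn5, -0.12 to 0.11 for Ptpn7 (0.03 without WT replicate 2 or SIRPα KO replicate 3), -0.16 to 0.28 for Ptpn9 (-0.11 without WT replicate 3), -0.27 to 0.13 for Ptpra, -0.02 to 1.87 for Ptprf and -0.03 to 0.19 for Ptprs (-0.00 and -0.01 without WT replicate 3 and SIRPα KO replicate 1).

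The labels do not say whether the replicate numbers pair the libraries. Deviations from the group means correlated at -0.139, 0.183 and 0.031 for numbers 1 to 3 over 9146 genes, and WT replicate 1 correlated best with SIRPα KO replicate 3 (0.229). Deviations within a group are not independent of each other, so these values cannot decide the question. With the replicate block 1118 genes and 2 members were called, Ptprc (adjusted p = 0.0416) and Ptpn18 (edgeR adjusted p = 0.0429), and Ptpn7 was 0.01. Between 0 and 48 reads per library limited what could be seen for Ptpn5, Ptprn and Ptprf.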

Other observations

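Ratios between members or their partners were formed in each library. They belong to 6 ratios formed after the values were seen, and none passed an exact two-sided permutation test, whose smallest p with 3 against 3 is 0.100. Ptpn4 relative to Ptpn3, both of the FERM group, was 1.04, 2.24 and 1.75 in WT and 2.39, 4.86 and 4.79 in SIRPα KO (p = 0.100 by exact permutation, 0.150 adjusted over the 6 ratios). Ptprc relative to Ptprcap was 3.01, 2.89 and 0.893 in WT and 6.47, 5.62 and 5.87 in SIRPα KO, with the same p and adjusted p. By contrast, Ptpre relative to Ptpra was 0.215, 0.374 and 0.188 in WT and 0.463, 0.456 and 0.352 in SIRPα KO, and the genotypes overlapped (p = 0.200 by exact permutation, 0.240 adjusted). The ratio of Ptpn18 to Ptpn12 was 2.84, 2.63 and 8.36 in WT and 1.43, 1.56 and 1.26 in SIRPα KO (p = 0.100 by exact permutation, 0.150 adjusted).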
